A study of Mus musculus with 27 samples.

Results

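A set of 10 genes of glucose uptake, glycolysis and the response to low oxygen was followed in whole mouse embryos with and without the DNA methyltransferase DNMT3B. The genes, Slc2a1, Hk2, Pfkl, Aldoa, Pgk1, Eno1, Pkm, Ldha, Pdk1 and Vegfa, were taken by name from an RNA-Seq table of 24065 genes, for their place in glucose uptake, glycolysis and the hypoxia response. All 10 have a row in the table and 9 of them passed the filter on low counts, Eno1 being the exception. The embryos were 3 WT and 3 Dnmt3b-/- littermates of the C57BL/6J strain, collected at E8.5, with 1 library of total RNA for each embryo. The knockout allele came from a Dnmt3b-2lox line crossed to mice with a Cre transgene driven by the ubiquitous ACTB promoter, which leaves an allele without catalytic activity, and both genotypes came from matings of heterozygous parents. The mutation was thus inherited and present in every tissue of the embryo, and the sex of the embryos is not in the labels. Each embryo was sequenced whole, so a lower value can come from fewer cells of a type or from less RNA per cell, and these cannot be told apart.

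Glycolysis splits glucose into pyruvate in the cytoplasm, and lactate dehydrogenase turns pyruvate into lactate so that the pathway can go on without oxygen. When oxygen is scarce, the hypoxia-inducible factors (HIF) accumulate and raise the transcription of glucose transporters, glycolytic enzymes, the pyruvate dehydrogenase kinase PDK1 and the angiogenic factor VEGFA. The embryo after gastrulation is known for a strong use of glucose, and it depends on glycolysis until its circulation and its mitochondria mature.

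HIF binds the core letters ACGTG or GCGTG, and both were searched on both strands in the 250 bases before each of 18 starts that a RefSeq table of start windows lists for the 10 genes. Not every transcript start has a window there: the gene models of Ldha, Aldoa and Pdk1 reach further upstream than their windows' starts. Below are 30-base stretches that hold matches, taken from the RefSeq start windows on the GRCm38.p6 build, for the 3 genes that were lower in Dnmt3b-/- embryos (Ldha, Pgk1 and Pfkl) and for 3 that were not called (Slc2a1, Hk2 and Pdk1). Every gene shown has a match in its first listed window, so that matches in both sets follow from the choice of genes. The first listed windows of Aldoa, Pkm and Vegfa, also not called, hold no match, and a second window of each does. Each stretch runs 5′ to 3′ along the strand of the gene. Capitals mark the matches, and CACGT or CACGC is a match on the other strand.
Ldha: cagcctaCACGTGggttcccgCACGTccgc
Pgk1: aggACGTGacaaatggaagtagCACGTctc
Pfkl: atttgtagactgGCGTGcgctccgcctttc
Slc2a1: CACGCctctcagagtcccgccccggACGTG
Hk2: aatgagcacatcCACGTcactgtccggggc
Pdk1: ccgcctacatggGCGTGtctttaaccaggg

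The Ldha stretch lies at chr7:46845749-46845778 on the plus strand, 55 to 26 bases before a listed start and inside an exon of a longer predicted Ldha model. It holds 3 of the 5 matches of its window, and 4 of those 5 come from 2 copies of the palindrome CACGTG, each of which is read on both strands. The Pgk1 stretch lies at chrX:106186947-106186976 on the plus strand and holds both matches of its window. The Pfkl stretch lies at chr10:78009889-78009918 on the minus strand and holds the 1 match of its window. The other 3 lie at chr4:119108684-119108713 on the plus strand (Slc2a1), chr6:82774489-82774518 on the minus strand (Hk2) and chr2:71873134-71873163 on the plus strand (Pdk1). Over all listed starts, 14 of 18 windows of the 10 genes (77.8%) held either motif, against 12679 of 32851 windows (38.6%) of all genes, and windows of 1 gene can overlap each other. Both motifs contain a CpG dinucleotide, and the windows compared were not matched for their CpG content. The part of CpG content in this contrast was not tested. The windows from which the stretches of Ldha, Pgk1 and Pfkl were taken hold 25, 17 and 13 CpG dinucleotides. Those of Hk2, Pdk1 and Slc2a1 hold 25, 19 and 13, so the windows shown lie above the median of 6 over all windows. A second listed window of Ldha holds 9 and a second of Pdk1 holds 2. A match of 5 letters is a description of the sequence and not a site of binding.

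The raw counts on genes summed to between 41489332 and 58470286 per embryo, at which depth 3 counts equal 2.38 to 3.5 normalized counts. That limit reflects counting error alone, because the reads carry no molecular identifiers and duplicates of 1 molecule count again. A normalized count is the raw count scaled to a common library size by the TMM method, and a gene was called when its adjusted p in edgeR's quasi-likelihood test was below 0.05. Dnmt3b itself had 7287, 14003 and 6301 normalized counts in WT and 4076, 4557 and 4756 in Dnmt3b-/- embryos. The difference was -1.04 ± 0.27 on the log2 scale (SE, n = 3 against 3, edgeR adjusted p = 0.0169), was called in 3 of 6 fits with an embryo left out and was -0.61 without WT embryo 2, and with a correction for GC content and exon length it was -0.845 and not called (adjusted p = 0.063). WT embryo 2 stood apart from the others in its tissue markers. The summed normalized counts of 10 markers of yolk sac endoderm were 60222, 189446 and 22308 in WT and 44229, 28187 and 12155 in Dnmt3b-/- embryos, none of the 10 being at 0 in all embryos. Those of 8 erythroid markers ranged from 12275 (WT embryo 2) to 68237 in WT and from 15515 to 44137 in Dnmt3b-/- embryos, and none of the 8 was at 0 in all embryos. Of 8 markers of trophoblast and decidua, 4 were at 0 in every embryo and the sum stayed between 460 and 909.

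Expression of 3 glycolytic genes was lower in Dnmt3b-/- embryos and no member was higher. Ldha, which encodes the main subunit of lactate dehydrogenase, fell to 65.8% of its WT level, Pfkl, the liver-type subunit of phosphofructokinase at the committed step of the pathway, fell to 71.96%, and Pgk1, phosphoglycerate kinase, fell to 79.8%. These are 3 of the 9 tested genes, where 18.1% of the 15114 tested genes in the table were called lower, 17.6% higher and 35.7% in either direction. The same 3 were the tested members whose genotypes did not overlap in the lower direction, a pattern that 26.5% of all tested genes showed. The median log2 fold change of the 9 genes was -0.17, beside -0.03 over all tested genes. With a fold change above 2 as a further condition, 0 of the 9 were lower and 0 higher, against 3.78% and 2.12% of all tested genes. Ldha and Pfkl were called lower in each of the 6 fits with an embryo left out. They were the only members called without WT embryo 3 or any of the Dnmt3b-/- embryos, Slc2a1 joined them without WT embryo 1, and Aldoa and Pgk1 did so without WT embryo 2. In the fit that corrected each library for GC content and exon length, the count became 1 lower (Ldha, against 10.6% of all genes) and 1 higher (Pkm, against 12.4%), and the median of the 9 genes became -0.01.

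**Figure D1:**
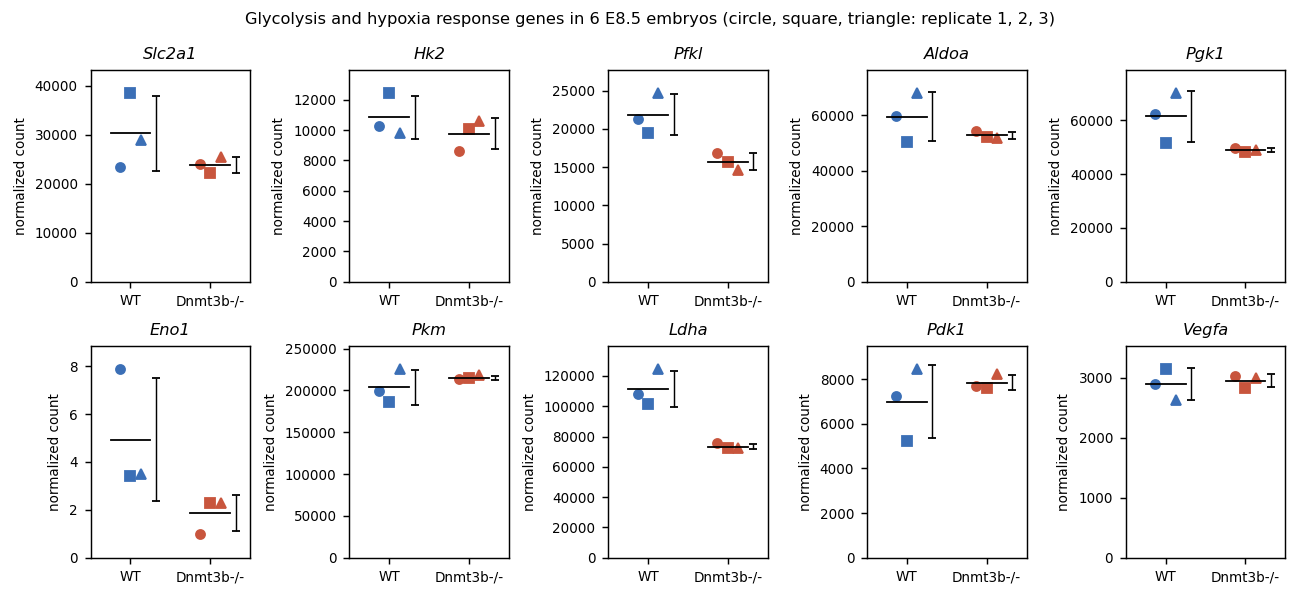
Normalized counts (y axis, from 0) of the 10 genes in 3 WT (blue) and 3 Dnmt3b-/- embryos (orange), with the mean as a line and the SD as a bar beside it. Ldha, Pfkl and Pgk1 show no overlap between the genotypes; Ldha lies between 101432 and 124816 in WT and between 72306 and 75427 in Dnmt3b-/- embryos.

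Glucose enters the cell through transporters, of which SLC2A1 (GLUT1) is the widespread form, and hexokinase traps it by phosphorylation. Slc2a1 had 23418, 38572 and 28896 normalized counts in WT and 23937, 22124 and 25491 in Dnmt3b-/- embryos. WT embryo 2 was the highest and WT embryo 1 lay among the Dnmt3b-/- embryos, so the genotypes overlapped. The log2 fold change was -0.345 ± 0.162 (SE, edgeR adjusted p = 0.132). It became -0.13 without WT embryo 2, the embryo high in yolk sac endoderm markers, and -0.50 without WT embryo 1, when the gene was called (adjusted p = 0.0294). With the GC and length correction it was -0.035 ± 0.176 (adjusted p = 0.91). The part of the yolk sac markers in this value was not tested.

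Hk2, the inducible hexokinase, had 10255, 12464 and 9794 normalized counts in WT and 8643, 10042 and 10623 in Dnmt3b-/- embryos. Here too WT embryo 2 was the highest of the 6, and the other embryos of both genotypes were intermingled. The difference was -0.15 ± 0.11 on the log2 scale (edgeR adjusted p = 0.34), became -0.04 without WT embryo 2 and was -0.01 with the GC and length correction.

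Pfkl had the most RNA of the phosphofructokinase genes in these embryos. Its normalized counts were 21328, 19487 and 24724 in WT and 16802, 15727 and 14632 in Dnmt3b-/- embryos. Every WT embryo lay above every Dnmt3b-/- embryo. Pfkl fell by 0.475 ± 0.1 on the log2 scale (edgeR adjusted p = 0.00755), and it was called in 6 of 6 fits with an embryo left out, at log2 fold changes of -0.55 to -0.38. The exons of Pfkl are 56.5% G and C, above the median of 50.3% of all tested genes and near that of the genes called lower (55.7%), while the genes called higher had a median of 45.0%. With the correction for GC content and length its log2 fold change was -0.045 ± 0.085 and it was no longer called (edgeR adjusted p = 0.737).

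**Figure D2:**
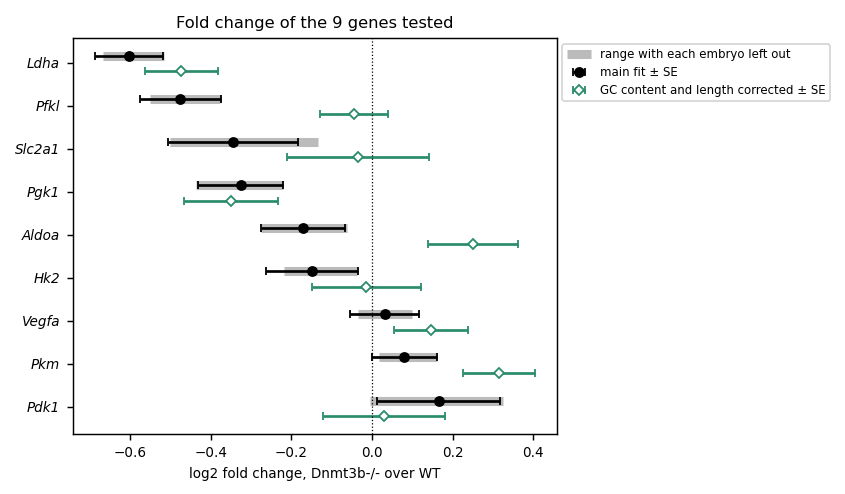
Log2 fold change between the genotypes (x axis, negative where Dnmt3b-/- is lower) for the 9 tested genes (y axis), as black circles with the SE, as grey bars for the range over 6 fits with a different embryo left out each time, and as green diamonds with the SE after the correction for GC content and exon length. Ldha is lower in both fits (-0.60 and -0.47), whereas Pfkl goes from -0.475 to -0.045 and Aldoa from -0.17 to 0.25.

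Aldolase A cleaves the hexose into a pair of triose phosphates. Aldoa had 59646, 50575 and 68202 normalized counts in WT and 54401, 52203 and 51908 in Dnmt3b-/- embryos. The WT embryos spread more widely and WT embryo 2 was the lowest of all 6. The log2 fold change of -0.17 ± 0.105 was not called (edgeR adjusted p = 0.239), was called without WT embryo 2 (-0.275, adjusted p = 0.0363) and became 0.25 with the GC and length correction (adjusted p = 0.143).

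Phosphoglycerate kinase makes the first ATP of the pathway. Pgk1, on the X chromosome, had 62386, 51610 and 70231 normalized counts in WT and 49611, 48201 and 49118 in Dnmt3b-/- embryos. The Dnmt3b-/- embryos were tightly grouped below the lowest WT embryo, which was embryo 2. Pgk1 fell by 0.33 ± 0.11 on the log2 scale (edgeR adjusted p = 0.0432), close to the threshold. The call was kept only without WT embryo 2 (-0.44, adjusted p = 0.00472) among the 6 fits with an embryo left out and was lost in the other 5, with adjusted p up to 0.139. It was also lost with the size factors of DESeq2 (adjusted p = 0.0503) and with the GC and length correction (-0.35 ± 0.117, adjusted p = 0.0637), in which the size of the difference hardly moved.

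Repeated sequence and X linkage bear on Pgk1. Of its 1751 stretches of 75 bases, the length of a read, 1600 (91.4%) also occur elsewhere in the genome, and how reads with several positions were counted is not given in the sources used here, so its level is uncertain. Xist, the RNA that coats the inactive X chromosome of female cells, had 18577, 4 and 15248 raw counts in WT embryos 1, 2 and 3 and 11, 18781 and 3 in Dnmt3b-/- embryos 1, 2 and 3. High Xist was thus found in 2 of 3 WT and 1 of 3 Dnmt3b-/- embryos, and its part in the difference was not tested. G6pdx, Idh3g and Pdk3, named below, also lie on the X chromosome, and the part of Xist in their differences was not tested either. Pgk2, the germline copy of the kinase gene, had 0 counts in all 6 embryos, with a limit of 3 counts per library.

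Enolase acts later in the pathway, and its level could not be read here. Eno1 had only 10, 3 and 4 raw counts in WT and 1, 2 and 2 in Dnmt3b-/- embryos. A near-identical gene model in the same table, Eno1b, took 6079, 5109 and 9805 raw counts in WT and 4775, 3389 and 2897 in Dnmt3b-/- embryos. Of the 1728 stretches of 75 bases in the Eno1 transcript, 1153 (66.7%) occur letter for letter in Eno1b. The log2 fold change of Eno1b was -0.69 ± 0.215 (edgeR adjusted p = 0.0374). It was called in 3 of 6 fits with an embryo left out and not with the GC and length correction (-0.44, adjusted p = 0.13), and which of the 2 genes its reads came from cannot be told.

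Pyruvate kinase closes glycolysis. Pkm had 199144, 185687 and 226000 normalized counts in WT and 213356, 214502 and 217905 in Dnmt3b-/- embryos, all 3 of which lay within the range of the WT embryos. The difference of 0.08 ± 0.081 on the log2 scale was not called (edgeR adjusted p = 0.475). With the GC and length correction it was 0.31 ± 0.089 and called (adjusted p = 0.0363). Pkm makes both the M1 and the M2 isoform, which a count per gene does not separate, and 13.8% of its 75-base stretches occur elsewhere in the genome.

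Ldha, whose enzyme regenerates NAD+ for glycolysis by reducing pyruvate to lactate, had 108343, 101432 and 124816 normalized counts in WT and 75427, 72306 and 72487 in Dnmt3b-/- embryos. The means were 111530 ± 12013 and 73407 ± 1752 (SD, n = 3 each), and the gap between the genotypes was wider than the spread within either. Ldha fell by 0.60 ± 0.085 on the log2 scale (edgeR adjusted p = 0.00158). It was called in 6 of 6 fits with an embryo left out, at -0.67 to -0.52. The GC and length correction left a log2 fold change of -0.47 ± 0.091 (adjusted p = 0.00876), and 6.95% of its 75-base stretches occur elsewhere. With that correction and an embryo left out, Ldha was called in 5 of 6 fits and not without Dnmt3b-/- embryo 2 (adjusted p = 0.0549). Without WT embryo 2 the log2 fold change was -0.67, so that the difference did not rest on that embryo.

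Neither hypoxia response gene outside the pathway was called. Pdk1, the kinase that shuts pyruvate out of the citric acid cycle, had 7250, 5252 and 8476 normalized counts in WT and 7710, 7593 and 8218 in Dnmt3b-/- embryos. WT embryo 2 was the lowest, and the other 5 embryos lay close together. The log2 fold change was 0.165 ± 0.153 (edgeR adjusted p = 0.436) and -0.004 without WT embryo 2.

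Vegfa, the growth factor that drives vessel formation, had 2896, 3155 and 2625 normalized counts in WT and 3031, 2830 and 3004 in Dnmt3b-/- embryos. The 3 Dnmt3b-/- values lay inside the WT range. The log2 fold change was 0.03 ± 0.086 (edgeR adjusted p = 0.805), and its sign turned with total-count scaling.

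Levels of different genes were compared as FPKM, which divides the normalized count by the summed exon length. In WT embryos the order ran from Ldha (1200 ± 129 FPKM, SD, n = 3) and Pkm (1105 ± 111) through Pgk1 (699 ± 106), Aldoa (677 ± 100.4), Slc2a1 (244.5 ± 61.9), Pfkl (111 ± 13.5), Hk2 (40.8 ± 5.38) and Pdk1 (26.3 ± 6.11) to Vegfa (14.4 ± 1.32). The ranges of Ldha and Pkm overlapped, as did those of Pgk1 and Aldoa, and all other neighbours were apart. Each gene was nevertheless above the next in 3 of 3 WT embryos. For Pgk1 and Aldoa this rested on the length used: with that of the longest transcript Aldoa stood at 778 and Pgk1 at 699. The level of Pgk1 is also uncertain because of its repeated sequence. Ldha stood at 790 ± 18.9 FPKM and Pkm at 1168 ± 12.8 in Dnmt3b-/- embryos, where Pkm was thus the higher of both.

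Several of these steps are served by more than one gene, and the share of each in the FPKM of its family does not depend on library scaling. Slc2a1 made up 39.4, 34.3 and 45.4% of the sum of Slc2a1 and Slc2a3 in WT and 51.0, 50.1 and 53.4% in Dnmt3b-/- embryos. Every Dnmt3b-/- embryo was above every WT embryo, by 11.8 percentage points on average. The exact two-sided permutation test gave p = 0.1, the smallest that 3 against 3 embryos allow, and 0.35 after adjustment over 7 families, so no family could pass. Pfkl held 85.3 ± 0.84% of the phosphofructokinase sum in WT and 83.0 ± 0.62% in Dnmt3b-/- embryos without overlap (exact permutation p = 0.1, adjusted p = 0.35). The shares were not corrected for GC content, which was 56.5, 54.4 and 48.9% in the exons of Pfkl, Pfkm and Pfkp. With the GC and length correction the log2 fold changes of these genes were -0.045, -0.263 and 0.196, against -0.475, -0.541 and 0.229 without it. Whether the Pfkl share would still differ with the correction was not tested.

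In the other 5 families the shares of the genotypes overlapped. Ldha held 98.0 ± 1.03% of Ldha plus Ldhb in WT and 96.8 ± 0.58% in Dnmt3b-/- embryos, and Aldoa 97.8 ± 2.11% and 98.7 ± 0.405% of the aldolases. Hk2 held 84.5 ± 4.54% and 82.2 ± 2.41% of Hk1 plus Hk2. Pdk1 was 39.6 ± 4.61% and 38.04 ± 1.79% of the 4 pyruvate dehydrogenase kinase genes, and Vegfa 39.9 ± 4.86% and 43.3 ± 3.67% of the 5 VEGF genes (SD, n = 3; exact permutation p between 0.3 and 0.8). Ldhc, the germline form of lactate dehydrogenase, had 14, 37 and 8 normalized counts in WT and 8, 18 and 46 in Dnmt3b-/- embryos.

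**Figure D3:**
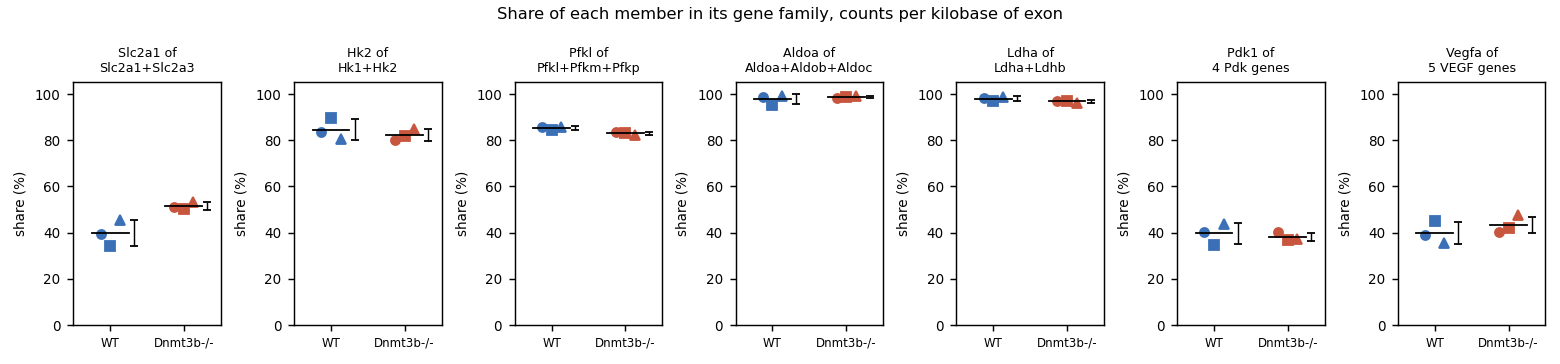
Share (y axis, %) of 7 of the genes in the summed counts per kilobase of their gene family, in 3 WT (blue) and 3 Dnmt3b-/- embryos (orange), with the mean as a line and the SD as a bar beside it. The shares of Slc2a1 (34.3 to 45.4% in WT, 50.1 to 53.4% in Dnmt3b-/-) and of Pfkl do not overlap between the genotypes. The other 5 do, and no share is corrected for GC content.

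The partner of Slc2a1 in this share was itself called lower. Slc2a3 (GLUT3), a glucose transporter of high affinity, had 55396, 113743 and 53388 normalized counts in WT and 35338, 33867 and 34210 in Dnmt3b-/- embryos. It fell by 1.1 ± 0.26 on the log2 scale (edgeR adjusted p = 0.0128) and was called in 4 of 6 fits with an embryo left out, with a log2 fold change of -0.66 without WT embryo 2. The monocarboxylate transporters carry lactate across the membrane. Slc16a3 (MCT4), the form that exports lactate from glycolytic cells, had 9673, 9161 and 9597 normalized counts in WT and 4381, 4398 and 4764 in Dnmt3b-/- embryos, with no embryo apart from its group. It fell by 1.07 ± 0.068 on the log2 scale (edgeR adjusted p = 0.000246) and was called in 6 of 6 such fits, and with the GC and length correction the log2 fold change was -0.51 (adjusted p = 0.0144). Slc16a1 (MCT1) had 22347, 44636 and 17951 normalized counts in WT and 18164, 17088 and 15500 in Dnmt3b-/- embryos, at a log2 fold change of -0.74 ± 0.29 (edgeR adjusted p = 0.0803). As for Slc2a1 and Slc2a3, WT embryo 2 was the highest of the 6 embryos, and the part of its yolk sac markers was not tested.

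**Figure D4:**
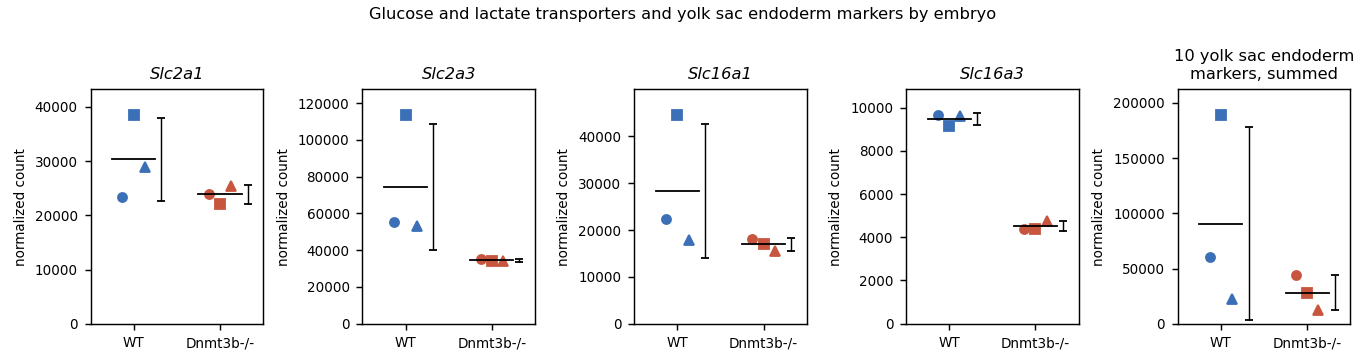
Normalized counts (y axes, from 0) of 4 transporter genes and the sum of 10 yolk sac endoderm markers in 3 WT (blue) and 3 Dnmt3b-/- embryos (orange), with replicates 1, 2 and 3 as circle, square and triangle, the mean as a line and the SD as a bar beside it. WT embryo 2 (square) is the highest in Slc2a1, Slc2a3, Slc16a1 and the marker sum, and not in Slc16a3.

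Other genes of the same pathways were taken from lists written by hand, and their counts stand beside the 18.1% of all tested genes called lower and the 17.6% called higher (10.6% and 12.4% with the GC and length correction). Of 18 other glycolytic enzyme genes tested, 2 were lower, Pfkm (-0.54 ± 0.099) and Tpi1 (-0.40 ± 0.101), and 1 was higher, Gapdh (0.51 ± 0.082, edgeR adjusted p = 0.00257), with a list median of 0.02 on the log2 scale. With the correction 0 were lower and 3 higher (Hk1, Gpi1 and Gapdh), and both Pfkm and Tpi1 stood at -0.26 and were not called (adjusted p = 0.0815 and 0.108). As for Pgk1, most 75-base stretches of Gapdh (85.4%) occur elsewhere in the genome, so that its value is uncertain too. Beside a median of -1.20 for the 10 yolk sac endoderm markers, glucose and lactate transporters were the pathway list with the lowest median (-1.05). Of its 10 tested genes, 5 were lower (Slc2a3, Slc2a4, Slc2a8, Slc2a10 and Slc16a3) and 0 higher, and with the GC and length correction 3 were lower (Slc2a3, Slc16a1 and Slc16a3), 1 was higher (Bsg) and the median was -0.60. With an embryo left out, Slc2a8 was called in 2 of 6 fits, and Slc2a4 and Slc2a10 in 4 of 6. Without WT embryo 2, the highest in yolk sac markers, Slc2a2, Slc2a3 and Slc16a1 were at -0.349, -0.658 and -0.253. With all embryos they were at -1.585, -1.105 and -0.743. Slc2a4 moved the other way, from -1.04 to -1.206, and Slc16a3 stayed between -1.096 and -1.036 in all 6 fits. Among 10 regulators of glycolytic flux, Pfkfb4 was lower (-0.97 ± 0.245) and Pfkfb3, which makes the activator of phosphofructokinase, was higher (0.64 ± 0.118), as was Pdk3 (0.29 ± 0.087). Pfkfb3 was called in 6 of 6 fits with an embryo left out, Pfkfb4 in 4 and Pdk3 in 1. With the correction Pfkfb3 alone was called (0.69), while Pfkfb4 was at -0.65 (adjusted p = 0.0606) and Pdk3 at 0.16 (adjusted p = 0.299).

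Pathways that branch off or follow held calls in both directions. In the pentose phosphate pathway 4 of 7 genes were lower, with Taldo1 at -0.85 ± 0.08 and Tkt at -0.42 ± 0.081, and 1 was higher, G6pdx (0.31 ± 0.083), the gene of the entry enzyme. With the correction 2 were lower (Rpe and Taldo1) and G6pdx was again higher, Tkt, Pgd and Pgls were at -0.17, -0.09 and -0.02 and not called, and the median went from -0.36 to -0.09. Of 21 genes of pyruvate dehydrogenase and the citric acid cycle, 7 were lower, such as Cs (-0.50 ± 0.106) and Sdhd (-0.74 ± 0.087), and 5 were higher, such as Dld (0.77 ± 0.086) and Idh3g (0.65 ± 0.073), with a median of -0.04. With the correction 4 were lower, Cs and Sdhd among them, and 5 higher, Dld and Idh3g among them.

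The genes of oxygen sensing and the HIF targets outside glycolysis held calls in both directions. Hif1a, the oxygen-regulated HIF subunit, had 19375, 20986 and 19822 normalized counts in WT and 27071, 28512 and 31077 in Dnmt3b-/- embryos. All Dnmt3b-/- embryos lay above all WT embryos, and Hif1a rose by 0.53 ± 0.075 on the log2 scale (edgeR adjusted p = 0.00168), though with the GC and length correction the log2 fold change was 0.16 and not called (adjusted p = 0.14). Of 11 genes of HIF subunits and oxygen sensing, Cited2 (0.56 ± 0.119) was higher besides Hif1a, and Egln2, a prolyl hydroxylase that marks HIF for degradation, was lower (-0.70 ± 0.114). With the correction Egln2 was at -0.02 (adjusted p = 0.929), none of the 11 was lower, and Cited2 and Egln1 were higher.

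Of 28 HIF targets outside glycolysis, 6 were higher and 2 lower, with a median of 0.14, beside 18.1% of all tested genes called lower and 17.6% higher. Higher were the mitophagy receptors Bnip3 (0.71 ± 0.157) and Bnip3l (0.60 ± 0.131), the collagen lysyl hydroxylase Plod2 (0.56 ± 0.071), Stc2, Ero1l and Gbe1, and lower were the histone demethylase Kdm4b (-0.91 ± 0.092) and Higd1a (-0.33 ± 0.102). Of the 75-base stretches of Bnip3, Ero1l and Bnip3l, 43.0%, 41.4% and 26.8% occur elsewhere in the genome, so that their values are uncertain. With an embryo left out, Stc2 was called in 1 of 6 fits, Higd1a in 2, and Ero1l and Gbe1 in 4. Bnip3, Bnip3l, Plod2 and Kdm4b were called in 6 of 6. With the GC and length correction 3 were higher (Plod2, Mxi1 and Stc2), against 12.4% of all tested genes, and the same 2 lower. Among 9 genes of the VEGF family and its receptors, Kdr, the main receptor of VEGFA, was lower (-0.46 ± 0.092, edgeR adjusted p = 0.00633) and none was higher, and with the correction Kdr was again lower (-0.48) and Vegfb higher. Of 7 genes of the MYC family, Max, the partner of MYC, was higher (0.885 ± 0.117, adjusted p = 0.00126) and none was lower, and with the correction Myc and Mycl were higher besides Max. Over all these lists 23 of 121 tested genes were lower and 18 higher, with a median of -0.08 beside -0.03 for all tested genes, and with the correction 12 were lower and 20 higher. None of these counts was tested against the shares over all genes.

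**Figure D5:**
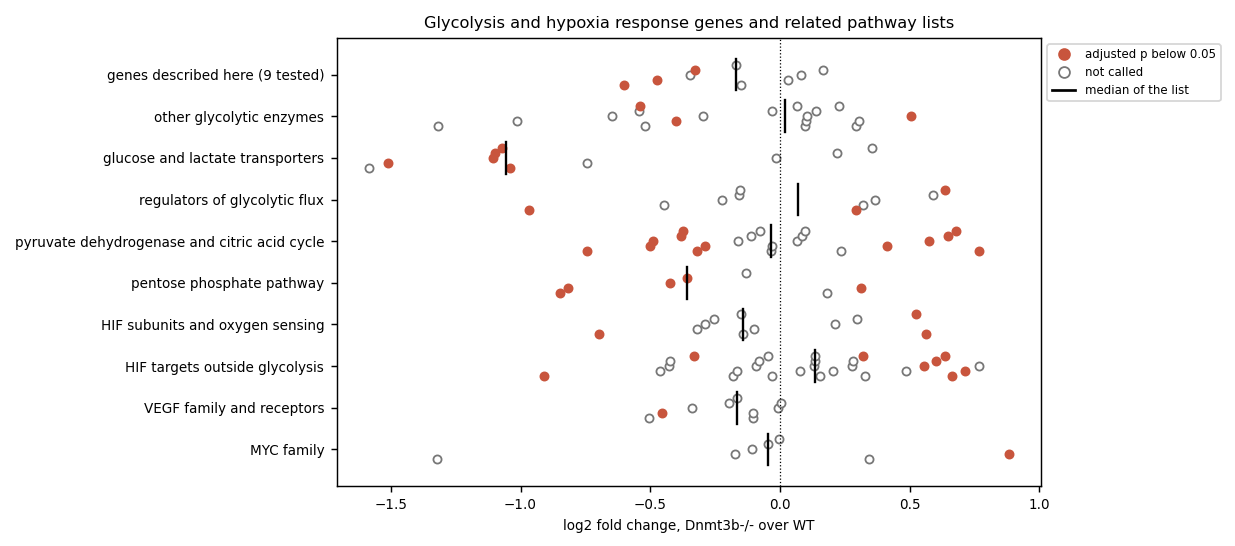
Log2 fold change between the genotypes (x axis, negative where Dnmt3b-/- is lower) of the 9 tested genes and of 9 lists of related genes (rows), with filled points for adjusted p below 0.05, open points for genes not called and a vertical bar at each median. The transporters lie lowest (median -1.05), while the HIF targets outside glycolysis have a median of 0.14.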

How the data were processed

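RNA-Seq was analysed in 6 whole E8.5 embryos (3 WT, 3 Dnmt3b-/-), grouped by their labels. The methylation libraries of the series were not analysed here. The libraries were made with a stranded kit from RNA depleted of ribosomal RNA. The authors aligned read pairs of 75 bases to the mm10 genome with TopHat2 2.0.12 and assigned them to RefSeq exons with HTSeq 0.6.0. Only the deposited raw counts were used. The strand setting and the treatment of reads with several positions are not given in the sources used here. The deposited table also holds counts scaled by the authors with DESeq2 1.4.5 and their own fold changes and p-values, none of which was used.

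The 15114 of 24065 genes averaging 10 or more counts entered edgeR's quasi-likelihood test (edgeR 4.0.16, R 4.3.3), with TMM scaling and Benjamini-Hochberg adjustment over all of them, at an adjusted p below 0.05. The SE is the log2 fold change divided by the square root of F. Alternatives were other filters and scalings, DESeq2 1.42.0, limma 3.58.1 with a prior count of 1, a replicate block, each embryo left out, and a spline correction (5 degrees of freedom each) for GC content and length. The edgeR, limma, DESeq2 and corrected fits were tried first on simulated counts with known changes. The annotation was RefSeq on GRCm38.p6, in which 22608 genes matched by symbol and 1258 by an older symbol (99.2%). Family shares were compared by exact permutation over embryos.

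The members and all lists were chosen with earlier results of these data known. The text names the 10 genes, genes of the lists, Dnmt3b, Pgk2, Ldhc, Xist and the 5 genes with the nearest profile. Eno1b was added after its values were seen. Same-numbered embryos did not deviate together (correlations of -0.05, -0.15 and -0.01), and the numbers are used here only to name the embryos. Whether same-numbered embryos shared a litter or a preparation was not tested.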

Additional observations from a re-analysis of the deposited data

How the results depend on the processing

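Ldha and Pfkl were called lower under each filter, scaling, tool and left-out embryo tried, and Ldha also with the correction for GC content and length. That correction left 1 of the 9 genes lower (from 3) and 1 higher (from 0), moved their median from -0.171 to -0.014, lowered the count of all genes called lower from 2741 to 1593 and that of the other pathway genes from 23 to 12, and turned Aldoa to 0.25; the cause was not tested. With the correction and each embryo left out, an alternative chosen after seeing the data, the median was -0.07, 0.113 and 0.037 without WT embryos 1, 2 and 3 and 0.048, 0.023 and -0.057 without Dnmt3b-/- embryos 1, 2 and 3. A fold change above 2 left 0 of the 9 genes, 571 genes lower and 320 higher in all, and 5 lower and 0 higher pathway genes. Leaving out each embryo gave between 1791 (without Dnmt3b-/- embryo 2) and 2660 genes and between 15 (again without Dnmt3b-/- embryo 2) and 26 pathway genes called lower. The sign turned in 5 values when an embryo was left out. Pdk1 ranged from -0.004 (without WT embryo 2) to 0.326 and Vegfa from -0.035 (without WT embryo 3) to 0.098 on the log2 scale. In percentage points, the difference in share ranged from -4.213 to 0.238 (without WT embryo 2) for Hk2, from -0.287 (without WT embryo 2) to 1.675 for Aldoa and from -4.084 to 0.478 (without WT embryo 3) for Pdk1. Total counts put Vegfa at -0.044. The lengths of the longest transcripts swapped 1 pair in the order of levels, Pgk1 and Aldoa. With the replicate block Pgk1 lost its call (-0.315, adjusted p = 0.0546), so that 2 of the 9 genes were lower, and no other of the 9 changed its call. The deviations of same-numbered embryos correlated at -0.05, -0.15 and -0.01, and whether these embryos shared a litter or a preparation was not tested. Scaling by total counts moved the median of all genes to -0.11. With 3 embryos per genotype the exact test of the shares cannot pass 0.05.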

Other observations

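The mean of the 9 tested genes, as log2 CPM centred on each gene, was 0.05, 0.03 and 0.20 in WT embryos 1, 2 and 3 and -0.09, -0.12 and -0.07 in the Dnmt3b-/- embryos, so that WT embryo 3 was the highest and both genotypes lay apart. The 5 genes outside the lists whose profile over the 6 embryos came nearest to it, by the root mean square difference of the centred log2 CPM, were Dcaf8 (0.0127), Papss1 (0.0194), Gemin6 (0.0235), Snap47 (0.0251) and Cactin (0.0252). Their genotypes did not overlap, as their choice by this profile favours, and 26.5% of all tested genes were lower without overlap. None of the 5 was called (edgeR adjusted p between 0.0951 and 0.19). With the correction for GC content and length Cactin was called higher (0.506, adjusted p = 0.0132) and Gemin6 lower (-0.374, adjusted p = 0.0266). Dcaf8, Papss1 and Snap47 were at 0.01, -0.127 and -0.027 with it and not called. Dcaf8 had 5914, 5827 and 6574 normalized counts in WT and 5483, 5332 and 5463 in Dnmt3b-/- embryos.

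Posterior Hox genes, which mark the growing tail end of the embryo, summed to 6483, 3974 and 5519 normalized counts in WT and 7089, 7142 and 8489 in Dnmt3b-/- embryos over 10 genes. WT embryo 2, the highest in yolk sac endoderm markers, was the lowest in this sum, and every Dnmt3b-/- embryo was above every WT embryo. Hoxb9 and Hoxa9 weighed most in the sum, with 3203 and 1877 of the 6483 counts in WT embryo 1. By gene, Hoxa9, Hoxc9, Hoxd11 and Hoxd13 were higher without overlap, as 25.3% of all tested genes were. Hoxd9 was lower without overlap (373, 332 and 259 in WT, 227, 253 and 258 in Dnmt3b-/- embryos), and the other genes overlapped. Of the 10 genes, 2 were called higher (Hoxa9 and Hoxd13), beside 17.6% of all tested genes. With an embryo left out, Hoxa9 was called in 4 of 6 fits and Hoxd13 in 1. With the correction for GC content and length neither was called (edgeR adjusted p = 0.0507 and 0.0549), and Hoxa13 was. The part of these markers in the values of the glycolytic genes was not tested.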
